A study of Arabidopsis thaliana with 16 samples.

Results

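The mRNA of cpl2-2 seedlings was compared directly with that of aipp3-1 seedlings, to describe what separates the loss of CPL2 from the loss of AIPP3, which are members of one protein complex. The comparison used 4 of 16 libraries, 2 of cpl2-2 and 2 of aipp3-1, and covered 19895 genes with at least 1 FPKM (fragments counted for a gene, scaled by transcript length and by the mapped fragments of the library) in at least 2 of the 16 libraries, of 33048 genes in the table. The series holds 2 libraries each of wild-type Col-0 and of 7 mutant genotypes in the Col-0 background. All came from 12-day-old seedlings grown on 1/2 MS medium with 1% sucrose at 23 °C and 16 h of light a day. The lines cpl2-2, aipp2-1 and aipp3-1 carry T-DNA insertions, and paipp2-1 was made by genome editing. The aipp2-1/paipp2-1 double mutant carries the aipp2-1 and paipp2-1 mutations, and clf (clf-81) and lhp1 (lhp1-3) are Polycomb mutants. Whole seedlings were used, so every value is a mean over roots and shoots, and each gene was studied with 1 mutant allele. The labels do not say whether the 2 libraries of a genotype came from separate cultures, so p-values measure the spread between these libraries, which may be technical.

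AIPP3 carries a BAH domain that reads the repressive histone mark H3K27me3, and CPL2 is a phosphatase that removes phosphate from serine 5 of the repeats in the carboxy-terminal domain (CTD) of RNA polymerase II. The PHD proteins AIPP2 and PAIPP2 join them in the BAH-PHD-CPL2 (BPC) complex, which represses genes marked by H3K27me3. CLF is a methyltransferase that places this mark, and LHP1 is another protein that reads it.

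The 4 libraries held 22160000 to 23100000 fragments, as recovered from the steps between low FPKM values, and all 16 held 19180000 to 27120000. Within each genotype the log2 values of the 2 libraries correlated at 0.942 to 0.992 across genes, lowest for the aipp2-1/paipp2-1 double mutant. The summed FPKM of 13 root marker genes was 1690 and 1900 in aipp3-1 and 1235 and 1654 in cpl2-2, against 1452 and 1316 in Col-0, and 11 of the 13 were lower in cpl2-2, although none passed the test. For 7 shoot marker genes the sums were 7457 and 6802 in Col-0, 5926 and 5692 in aipp3-1, and 5848 and 4806 in cpl2-2, and 5 of the 6 tested were lower in cpl2-2, none of them called. The aipp3-1 libraries were thus above both Col-0 libraries in root markers, and both mutants were below Col-0 in shoot markers. The summed FPKM of 6 seed marker genes was 3.48 and 10.7 in aipp3-1 and 9.32 and 35.5 in cpl2-2, against 0.56 and 0.26 in Col-0. In whole seedlings, fewer cells of a type and less RNA per cell cannot be told apart, and the part of the markers in the results below was not tested.

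Both targeted genes were low in the lines that carry their mutation. AIPP3 (AT4G11560) was at 5.99 and 4.84 FPKM in aipp3-1, 26.0 and 26.1 in cpl2-2, against 22.76 and 23.57 in Col-0. CPL2 (AT5G01270) was at 6.01 and 6.12 FPKM in cpl2-2, 15.6 and 14.2 in aipp3-1 and 15.3 and 14.1 in Col-0. Neither transcript was absent from its mutant, and each was near its Col-0 level in the other mutant. The log2 difference, cpl2-2 minus aipp3-1 here and throughout, was 2.17 ± 0.11 (SE) for AIPP3 (adjusted p = 6e-06) and −1.23 ± 0.12 for CPL2 (adjusted p = 0.00065). AIPP2 and PAIPP2 differed by 0.03 and −0.06, with 95% intervals of −0.25 to 0.31 and −0.37 to 0.25.

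At an adjusted p under 0.05 and a difference of at least 2-fold on the log2(FPKM + 0.5) scale, 86 genes were higher in cpl2-2 (0.432% of those tested) and 152 were lower (0.764%). The median difference over all tested genes was −0.045. At an unadjusted p under 0.05 and the same fold, 204 genes were higher (1.03%) and 245 lower (1.23%), and the 2 cpl2-2 values lay above both aipp3-1 values for 21.1% of all tested genes and below both for 34.6%. Of the 86 genes, 23 differed by 4-fold or more, and of the 152, 25 did. The genes called higher had a median of 2.15 FPKM in aipp3-1 and 7.62 in cpl2-2, and those called lower had a median of 8.46 FPKM in aipp3-1 and 2.75 in cpl2-2. The counts depended on single libraries. They were 25 higher and 31 lower without cpl2-2 library 1, 54 and 176 without cpl2-2 library 2, 57 and 84 without aipp3-1 library 1, and 24 and 72 without aipp3-1 library 2. Of the called genes, 16 higher and 25 lower kept their call with any 1 of the 4 libraries left out.

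**Figure D1:**
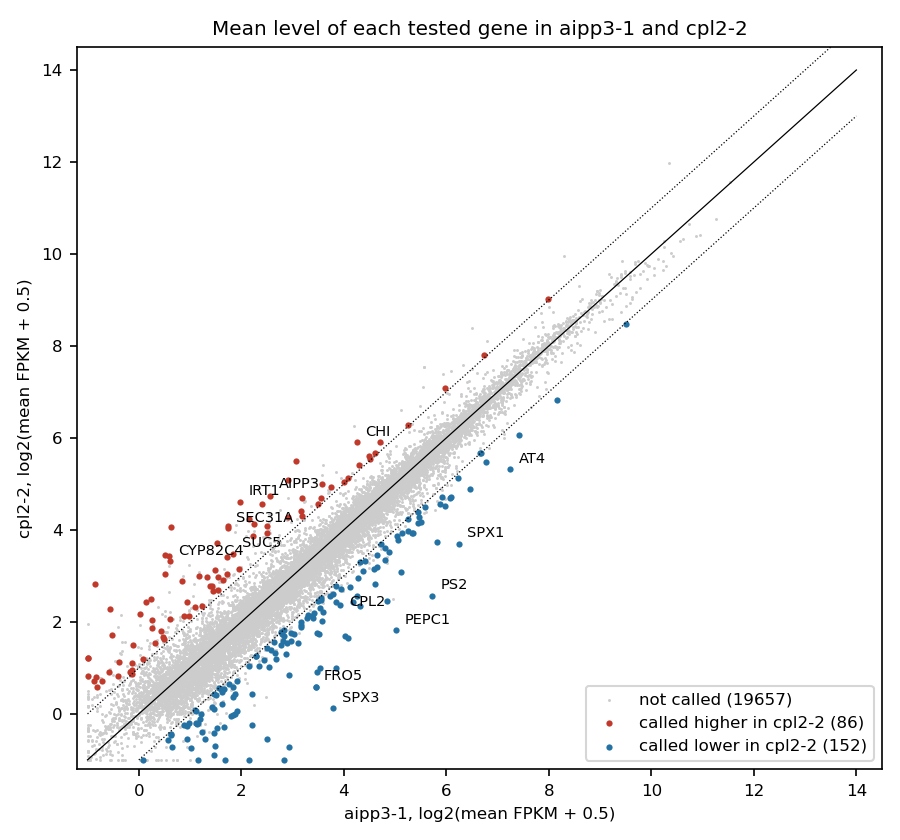
Mean level of each of the 19895 tested genes in aipp3-1 (x axis) and cpl2-2 (y axis), as log2 of the mean FPKM of the 2 libraries plus 0.5. Red points are the 86 genes called higher in cpl2-2 and blue points the 152 called lower, the solid line marks equal levels and the dotted lines a 2-fold difference; the phosphate starvation genes PS2, SPX1 and SPX3 lie far below the line, and SEC31A, IRT1 and CYP82C4 far above it.

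The place of Col-0 differed between the lists, which is a description because the libraries are shared. Among the 152 genes called lower in cpl2-2, the Col-0 mean lay between the mutants for 102, below both for 36 and above both for 14, and on the log2 scale Col-0 was closer to cpl2-2 for 103. Among the 86 called higher, the Col-0 mean lay between the mutants for 46, below both for 32 and above both for 8, and Col-0 was closer to aipp3-1 for 58. The median difference from Col-0 of the 152 genes was 0.92 in aipp3-1 and −0.39 in cpl2-2, and that of the 86 genes was −0.31 in aipp3-1 and 1.22 in cpl2-2. Of the 152 genes, 69 were called higher in aipp3-1 against Col-0 and 1 lower, where 3.14% and 0.251% of all tested genes were, and 1 was called higher in cpl2-2 and 22 lower, where 2.71% and 0.332% were. Of the 86 genes, 7 were called higher and 20 lower in aipp3-1, and 44 higher and 0 lower in cpl2-2. Most genes called lower in cpl2-2 were thus above Col-0 in aipp3-1, and most called higher were above Col-0 in cpl2-2.

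Phosphate starvation genes formed the clearest group among those called lower, on a list chosen with earlier results of these data known. When phosphate is scarce, the transcription factor PHR1 binds a short palindrome in the promoters of its target genes, called P1BS, and turns on genes for phosphate uptake, for phosphatases and for the exchange of phospholipids for galactolipids and sulfolipids. The microRNA miR399 is part of this response: it lowers PHO2, a ubiquitin-conjugating enzyme that limits phosphate uptake, and the noncoding RNAs IPS1 and AT4 bind miR399 without being cut. SPX proteins sense the phosphate status and restrain PHR1.

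Of the 14 tested genes of a phosphate starvation list, 9 were called lower in cpl2-2 (64.3%) and none higher, and all 14 had a difference below 0. Of all tested genes, 0.764% were called lower and 0.432% higher. The median difference of the 14 was −1.59, against −0.045 for all tested genes. On their own, the median differences of the list from Col-0 were 1.56 in aipp3-1 and 0.00 in cpl2-2. The number called lower was 4 without cpl2-2 library 1, 9 without cpl2-2 library 2, 7 without aipp3-1 library 1 and 6 without aipp3-1 library 2. SPX3, SQD2, MGD2 and MGD3 kept their calls in each of these.

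SPX3 (AT2G45130), an SPX-domain repressor of the response, was at 13.9 and 12.9 FPKM in aipp3-1, 0.74 and 0.44 in cpl2-2, against 0.10 and 0.44 in Col-0. Its difference was −3.69 ± 0.41 (adjusted p = 0.0014). SPX1 (AT5G20150), its relative, was at 72.2 and 78.8 FPKM in aipp3-1, 11.3 and 13.7 in cpl2-2, against 12.3 and 16.0 in Col-0. For both genes the cpl2-2 libraries lay near those of Col-0 and far from those of aipp3-1, and for SPX1 the difference was −2.55 ± 0.40 (adjusted p = 0.0079; 0.098 without cpl2-2 library 1 and 0.074 without aipp3-1 library 2). PS2 (AT1G73010), a pyrophosphatase, was at 52.9 and 52.0 FPKM in aipp3-1, 4.32 and 6.59 in cpl2-2, against 2.68 and 7.84 in Col-0, a difference of −3.18 ± 0.45 (adjusted p = 0.0055; 0.078 without cpl2-2 library 1).

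Genes of lipid exchange were also called. MGD3 (AT2G11810), a galactolipid synthase, was at 8.88 and 12.0 FPKM in aipp3-1, 0.94 and 1.07 in cpl2-2, against 1.02 and 1.01 in Col-0 (difference −2.85 ± 0.31, adjusted p = 0.0012). NPC4 (AT3G03530), a phospholipase C, was at 13.2 and 14.7 FPKM in aipp3-1, 1.19 and 1.81 in cpl2-2, against 3.05 and 3.86 in Col-0 (difference −2.87 ± 0.27, adjusted p = 0.0005). NPC4 was therefore above both Col-0 libraries in aipp3-1 and below both in cpl2-2. MGD2 and the sulfolipid synthase gene SQD2 differed by −1.72 ± 0.20 and −1.46 ± 0.17, with adjusted p = 0.0018 and 0.0016. SQD2 is also the 1 called gene among 45 tested genes within 100 kb of the CPL2 locus on chromosome 5, and whether the insertion there bears on it was not tested.

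Phosphatases and transporters made up the rest of the group. PAP14 (AT2G46880), a purple acid phosphatase, was at 8.84 and 5.42 FPKM in aipp3-1, 0.08 and 0.13 in cpl2-2 and 0 in both Col-0 libraries (difference −3.62 ± 0.45, adjusted p = 0.0027). PEPC1 (AT1G17710), a phosphatase of phosphoethanolamine and phosphocholine, was at 31.6 and 32.0 FPKM in aipp3-1, 2.57 and 3.51 in cpl2-2, against 0.71 and 1.09 in Col-0 (difference −3.20 ± 0.41, adjusted p = 0.0028). Both kept their calls with any library left out. PAP17, another acid phosphatase, and PHT1;4, a phosphate transporter, differed by −1.39 ± 0.30 and −1.24 ± 0.23 (adjusted p = 0.037 and 0.019), and PAP17 lost its call with any 1 library left out (0.091 to 0.25), as PHT1;4 did with any but cpl2-2 library 2 (0.060 to 0.18).

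Further called genes known from this response were chosen after their values were seen. GDPD1 (AT3G02040), which cleaves glycerophosphodiesters, was at 53.8 and 57.4 FPKM in aipp3-1, 11.3 and 14.4 in cpl2-2, against 9.97 and 10.6 in Col-0 (difference −2.08 ± 0.14, adjusted p = 5.6e-05). The transporter genes OCT1 and G3Pp1 differed by −2.56 ± 0.33 and −1.35 ± 0.16, and the acid phosphatase genes PAP5 and PAP24 by −2.38 ± 0.21 and −1.75 ± 0.24. All 5 were called, and of the 5 only PAP24 lost its call when a library was left out (adjusted p = 0.056 without cpl2-2 library 1). Not every phosphate gene differed by 2-fold: SPX2 and PPCK1 passed the adjusted p with differences of −0.74 ± 0.14 and −0.56 ± 0.13, and the exporter gene PHO1 and the sulfolipid gene SQD1 differed by −0.34 ± 0.11 and −0.13 ± 0.20. A wider list held 56 tested genes annotated to the cellular response to phosphate starvation, and was taken up after the calls were seen. Of these, 7 were called lower (12.5%, against 0.764% of all tested genes) and none higher, with a median of −0.18.

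**Figure D2:**
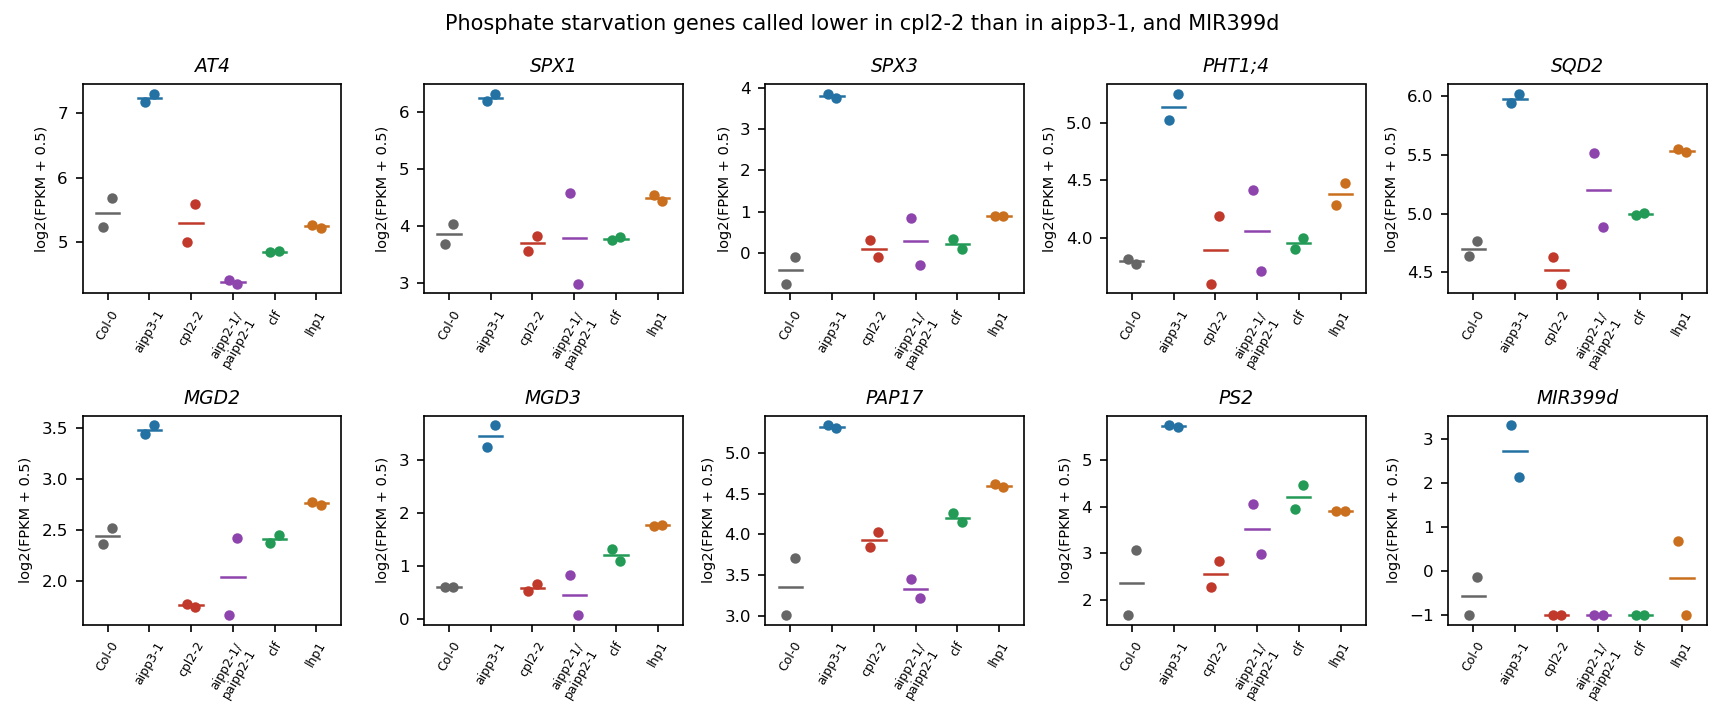
Level of the 9 called phosphate starvation genes and of MIR399d in each library (points; bars are means of 2 libraries) as log2(FPKM + 0.5), in Col-0, aipp3-1, cpl2-2, aipp2-1/paipp2-1, clf and lhp1. In each panel both aipp3-1 points lie above both points of every other genotype shown, and for SPX3, SPX1, PS2 and MGD3 the cpl2-2 points lie near those of Col-0.

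Among microRNA loci that respond to nutrient supply, 4 were called lower too, and their mature sequences show which families they belong to. The mature miRNAs of the 4 called loci, read from the TAIR10.1 reference of RefSeq at the annotated positions, are given with the seed (bases 2 to 8) in capitals. The miRNAs miR399c-3p and miR399d share 1 seed, and miR395e and miR397a have a different seed each.
miR399c-3p: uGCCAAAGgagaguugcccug
miR399d: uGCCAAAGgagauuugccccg
miR395e: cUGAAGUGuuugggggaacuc
miR397a: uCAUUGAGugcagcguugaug
The first is encoded at chr5:24962568-24962588 on the plus strand, miR399d at chr2:14442988-14443008 on the minus strand, miR395e at chr1:26272786-26272806 on the minus strand and miR397a at chr4:2625960-2625980 on the plus strand.

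The deposited values count fragments of the primary transcripts, since mature miRNAs are not captured in mRNA libraries. MIR399d (AT2G34202) was at 9.42 and 3.89 FPKM in aipp3-1, which is 21 and 9 fragments, and at 0 in both cpl2-2 libraries and 0 and 0.41 in Col-0. MIR399c (AT5G62162) was at 3.94 and 1.52 FPKM in aipp3-1, 10 and 4 fragments, and at 0 in both cpl2-2 and both Col-0 libraries. Over the 6 MIR399 loci the fragments summed to 32 and 13 in the aipp3-1 libraries and to 0 and 2 in those of cpl2-2 and of Col-0 alike. Against the floor of 3 fragments in a library, MIR399d was at least 4.92-fold and MIR399c at least 2.3-fold higher in aipp3-1 than in cpl2-2 (adjusted p = 0.012 and 0.019). These bounds rest on the mean of both aipp3-1 libraries, and without aipp3-1 library 1 they were 2.87-fold and 1.28-fold. Leaving out a library ended both calls, with adjusted p = 0.10 and 0.14 without cpl2-2 library 1 and 0.078 and 0.12 without aipp3-1 library 1, and that of MIR399c also without cpl2-2 library 2 (0.068). The floor covers counting error only.

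MIR395e (AT1G69795), from a family that acts in sulfate assimilation, was at 2.83 and 5.0 FPKM in aipp3-1 (6 and 11 fragments) at 0 in both cpl2-2 libraries and at 0 and 0.43 in Col-0, at least 2.75-fold higher against the same floor (adjusted p = 0.036; 0.091 to 0.26 with a library left out). MIR397a (AT4G05105), whose family targets laccase genes and responds to copper, was at 4.19 and 4.04 FPKM in aipp3-1, 1.27 and 0.42 in cpl2-2, against 1.75 and 2.27 in Col-0 (difference −1.85 ± 0.36, adjusted p = 0.024; 0.12 without cpl2-2 library 2, 0.10 and 0.15 without aipp3-1 library 1 and 2). Both loci were higher in each aipp3-1 library than in each cpl2-2 library, at few fragments. MIR827, another phosphate-responsive locus, was at 2.03 and 2.69 FPKM in aipp3-1 and 0 and 1.01 in cpl2-2 and did not pass (adjusted p = 0.093). Of the 22 nutrient miRNA loci looked up, a list drawn up after the calls were seen, 6 passed the filter on low values. Of these, 4 were called lower and none higher (0.764% and 0.432% of all tested genes), a direction that the filter partly set. MIR399c passed only through its aipp3-1 libraries. MIR399c, MIR399d and MIR395e were at 0 in both cpl2-2 libraries, and such a locus could only be called lower.

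The partners of miR399 gave 2 noncoding RNAs and 1 target. AT4 (AT5G03545) was at 145 and 157 FPKM in aipp3-1, 31.5 and 47.7 in cpl2-2, against 36.9 and 51.1 in Col-0 (difference −1.95 ± 0.26, adjusted p = 0.0037; 0.056 without cpl2-2 library 1). IPS1 (AT3G09922) was at 27.2 and 34.0 FPKM in aipp3-1, 2.50 and 7.83 in cpl2-2, against 3.62 and 6.96 in Col-0, and its difference of −2.63 ± 0.63 had an adjusted p of 0.0504, just above the threshold. PHO2 (AT2G33770), the target, was at 30.7 and 34.5 FPKM in aipp3-1 and 31.4 and 27.5 in cpl2-2, a difference of −0.14 with a 95% interval of −0.39 to 0.10. A search of the transcripts found the sites in AT4 and IPS1 that pair with miR399c-3p. They are shown because they are what makes both RNAs partners of miR399. Capitals mark the target bases that form A-U or G-C pairs, with 18 of the 21 bases of the miRNA. The bases in lower case form no such pair, and G-U pairs were not counted.
AT4 site: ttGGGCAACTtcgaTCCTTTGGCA
IPS1 site: ttGGGCAACTtctaTCCTTTGGCA
The AT4 site lies at chr5:895149-895172 and the IPS1 site at chr3:3051224-3051247, both on the plus strand.

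The P1BS letters, GNATATNC, were searched on both strands in windows from 250 bases before to 50 after the start of each gene. The motif was chosen after the calls were seen, and the counts are descriptions. They occurred in 21.1% of the 147 windows of genes called lower in cpl2-2, in 2.53% of the 79 windows of genes called higher and in 6.26% of all 19561 windows. Leaving out the genes on either phosphate list, the share among genes called lower was 17.5% of 137. That remainder still holds genes of the response named above. MIR399c, MIR399d, NPC4, PAP14, GDPD1, PAP5 and PAP24 are in it and carry the motif. The share thus does not describe genes outside the phosphate response. Within the phosphate starvation list 8 of 14 windows held the motif, and within the iron deficiency list none of 21 did. Starts are those of the annotated genes, and the annotated loci of MIR399c and MIR399d are only 114 and 100 bases long. The windows of these 2 loci may therefore include part of a longer primary transcript. The 250 bases before the annotated start of SPX3, PS2 and MIR399d are printed, with P1BS in capitals. They are members of the group that differed most between the mutants.
SPX3 promoter: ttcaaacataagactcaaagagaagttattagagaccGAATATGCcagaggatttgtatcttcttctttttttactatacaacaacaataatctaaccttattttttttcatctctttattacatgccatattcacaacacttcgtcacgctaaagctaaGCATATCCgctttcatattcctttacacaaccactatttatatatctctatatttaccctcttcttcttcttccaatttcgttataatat
PS2 promoter: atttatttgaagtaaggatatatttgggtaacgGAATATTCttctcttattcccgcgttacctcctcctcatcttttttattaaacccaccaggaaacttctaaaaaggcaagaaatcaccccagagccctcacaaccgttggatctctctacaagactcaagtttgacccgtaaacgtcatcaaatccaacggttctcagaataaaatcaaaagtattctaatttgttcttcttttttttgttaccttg
MIR399d promoter: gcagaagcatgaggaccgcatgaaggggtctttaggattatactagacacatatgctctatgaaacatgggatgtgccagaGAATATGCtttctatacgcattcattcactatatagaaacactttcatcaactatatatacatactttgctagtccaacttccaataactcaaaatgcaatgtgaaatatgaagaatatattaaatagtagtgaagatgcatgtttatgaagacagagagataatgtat
They lie at chr2:18606160-18606409 on the plus strand, chr1:27466349-27466598 on the minus strand and chr2:14443078-14443327 on the minus strand of TAIR10.1. The P1BS letters overlap the heat shock element core GAANNTTC, which was in 18.4% of the windows of genes called lower and in 11.1% of all. The TATAAA letters were in 68.0% and 67.1% of the windows of genes called lower and higher, against 51.8% of all.

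The iron deficiency genes that were called differed in the opposite direction. Roots short of iron raise FRO2, which reduces ferric iron at the surface, and IRT1, which takes up ferrous iron, under the transcription factor FIT and its partners of the bHLH Ib group (BHLH38, BHLH39, BHLH100 and BHLH101). An iron deficiency list, also chosen with earlier results of these data known, had 21 tested genes. Of these, 8 were called higher in cpl2-2 than in aipp3-1 (38.1%) and none lower. Of all tested genes, 0.432% were called higher and 0.764% lower. The median difference of the list was 0.82, against −0.045 for all tested genes. The median differences from Col-0 were −0.48 in aipp3-1 and 0.01 in cpl2-2. The number called was 3 without cpl2-2 library 1, 5 without cpl2-2 library 2, 7 without aipp3-1 library 1 and 3 without aipp3-1 library 2. The 3 that kept their calls in each were IRT1, FRO2 and CYP82C4.

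IRT1 (AT4G19690) was at 4.33 and 2.57 FPKM in aipp3-1, 23.7 and 24.3 in cpl2-2, against 26.7 and 26.0 in Col-0 (difference 2.67 ± 0.32, adjusted p = 0.0022). FRO2 (AT1G01580) was at 2.63 and 2.00 FPKM in aipp3-1, 7.85 and 8.70 in cpl2-2, against 9.78 and 10.7 in Col-0 (difference 1.65 ± 0.22, adjusted p = 0.0033). CYP82C4 (AT4G31940), which helps make an iron-mobilising coumarin, was at 1.36 and 0.69 FPKM in aipp3-1, 9.28 and 9.67 in cpl2-2, against 17.61 and 21.53 in Col-0 (difference 2.75 ± 0.34, adjusted p = 0.0026). In these 3 genes the aipp3-1 libraries were the low ones, and both cpl2-2 libraries lay below both of Col-0.

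The bHLH Ib genes varied more between libraries of 1 genotype. BHLH100 (AT2G41240) was at 1.90 and 0.19 FPKM in aipp3-1, 20.7 and 11.6 in cpl2-2, against 2.87 and 13.2 in Col-0 (difference 3.64 ± 0.70, adjusted p = 0.022). BHLH38 (AT3G56970) was at 1.74 and 0.12 FPKM in aipp3-1, 12.2 and 8.59 in cpl2-2, against 2.98 and 9.55 in Col-0 (difference 3.19 ± 0.66, adjusted p = 0.029). BHLH39 (AT3G56980), its neighbour on chromosome 3, was at 1.51 and 0.50 FPKM in aipp3-1, 13.1 and 7.39 in cpl2-2, against 3.70 and 7.57 in Col-0 (difference 2.87 ± 0.45, adjusted p = 0.0083). The cpl2-2 and aipp3-1 libraries did not overlap, but the 2 Col-0 libraries lay more than 2-fold apart in each gene. All 3 calls were lost without cpl2-2 library 1 (adjusted p = 0.20, 0.23 and 0.11) and without aipp3-1 library 2 (0.20, 0.25 and 0.092), and that of BHLH38 also without cpl2-2 library 2 (0.072).

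Of the other members of the iron list, BHLH101 and ZIF1, a vacuolar transporter of nicotianamine, differed by 2.07 ± 0.41 and 1.09 ± 0.23 and were called, though neither with any of the 4 libraries left out. Without reaching 2-fold, FRO3 and BTS, a ubiquitin ligase that limits the response, passed the adjusted p at 0.75 ± 0.16 and 0.82 ± 0.17. FIT itself was at 3.90 and 4.85 FPKM in aipp3-1 and 3.21 and 3.98 in cpl2-2, a difference of −0.25 with a 95% interval of −0.80 to 0.30. Planned members IMA1, IMA2, IMA3 and S8H could not be tied to a locus by symbol, so the tested list lacks them. Outside the tested list, AT1G47400 had no symbol in the annotation used. It was at 4.26 and 1.44 FPKM in aipp3-1 and 19.2 and 13.8 in cpl2-2. Its difference was 2.46 ± 0.53 (adjusted p = 0.033), and 1.81 to 3.11 with a library left out, where the call was mostly lost. A list of 56 tested genes annotated as responding to iron was taken up after the calls were seen. Of these, 6 were called higher (10.7%) and 1 lower (1.79%), with a median of 0.01. Of all tested genes, 0.432% were called higher and 0.764% lower.

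The letters of the G-box, CACGTG, to which bHLH proteins can bind, were in 7 of 21 windows of the iron list, against 8.85% of all windows and 8.86% of those of genes called higher. The 250 bases before BHLH38 and BHLH100 are printed as the promoters of the most different iron genes, with the G-box in capitals.
BHLH38 promoter: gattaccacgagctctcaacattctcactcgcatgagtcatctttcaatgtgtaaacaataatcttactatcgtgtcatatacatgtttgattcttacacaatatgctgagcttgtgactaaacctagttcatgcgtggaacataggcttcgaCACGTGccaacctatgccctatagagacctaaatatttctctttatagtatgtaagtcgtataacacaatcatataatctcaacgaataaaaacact
BHLH100 promoter: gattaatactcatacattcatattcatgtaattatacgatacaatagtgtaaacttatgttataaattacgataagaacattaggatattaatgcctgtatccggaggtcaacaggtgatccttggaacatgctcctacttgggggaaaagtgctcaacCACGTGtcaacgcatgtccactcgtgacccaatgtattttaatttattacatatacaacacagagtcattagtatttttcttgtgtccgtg
They lie at chr3:21085246-21085495 and chr2:17199455-17199704, both on the minus strand. BHLH39 and IRT1 had no CACGTG in these windows.

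**Figure D3:**
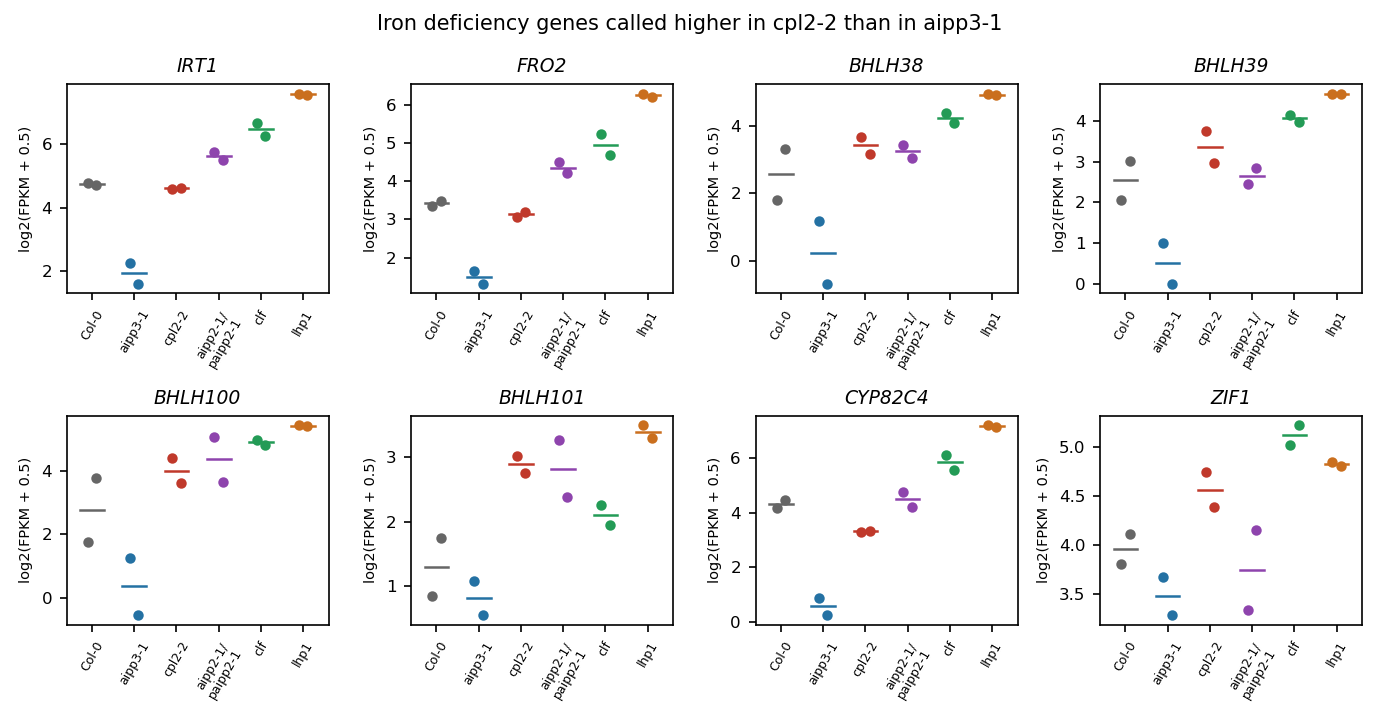
Level of the 8 called iron deficiency genes in each library (points; bars are means of 2 libraries) as log2(FPKM + 0.5), in Col-0, aipp3-1, cpl2-2, aipp2-1/paipp2-1, clf and lhp1. In each panel both cpl2-2 points lie above both aipp3-1 points; IRT1, FRO2 and CYP82C4 are highest in lhp1, and the 2 Col-0 points lie apart for BHLH38, BHLH39 and BHLH100.

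A few called genes are tied to copper, and they differed in both directions. FRO5 (AT5G23990) and its neighbour FRO4 (AT5G23980), reductases known for copper uptake, were called lower in cpl2-2. FRO5 was at 7.61 and 13.2 FPKM in aipp3-1, 0.97 and 1.05 in cpl2-2, against 0.59 and 1.04 in Col-0 (difference −2.81 ± 0.29, adjusted p = 0.00097), and FRO4 was at 15.5 and 21.8, 4.67 and 6.11, and 8.23 and 7.86 FPKM (difference −1.69 ± 0.22, adjusted p = 0.0034; 0.056 without cpl2-2 library 1). CSD2 (AT2G28190), the chloroplast superoxide dismutase that needs copper and zinc, was higher in cpl2-2, at 34.6 and 49.3 FPKM against 18.9 and 19.5 in aipp3-1 (difference 1.09 ± 0.20, adjusted p = 0.017; 0.084 to 0.11 without cpl2-2 library 2 or either aipp3-1 library). FRO4 and FRO5 are close relatives, so fragments that fit both could be split between them. FRO4 and CSD2 were named after their values were seen.

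Sulfur deficiency genes also included calls. LSU3 (AT3G49570) and LSU1 (AT3G49580), which lie next to each other on chromosome 3 and belong to a family raised by sulfur shortage, were lower in cpl2-2 by −1.31 ± 0.24 and −1.64 ± 0.34 (adjusted p = 0.017 and 0.031). LSU3 was at 4.70 and 6.97 FPKM in aipp3-1, 1.76 and 2.28 in cpl2-2, against 2.51 and 3.76 in Col-0, and LSU1 was at 9.57 and 13.3, 2.14 and 4.94, and 3.22 and 6.59 FPKM. Both calls were lost without cpl2-2 library 1 (0.16 and 0.26) and without aipp3-1 library 2 (0.17 and 0.24), and that of LSU1 also without aipp3-1 library 1 (0.073). A list of 19 tested genes annotated to sulfur or sulfate starvation was taken up after the calls were seen. Of these, 1 was called lower, LSU1 (5.26%, against 0.764% of all tested genes), and none higher, with a median of −0.20.

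Some auxin-response genes were called lower in cpl2-2 than in aipp3-1. An auxin and gibberellin response list, chosen with earlier results of these data known, had 24 tested genes. Of these, 4 were called lower (16.7%) and none higher. Of all tested genes, 0.764% were called lower and 0.432% higher. In the list 21 had a difference below 0, and the median was −0.86, against −0.045 for all tested genes. Against Col-0, 1 member was called higher and 3 lower in aipp3-1, where 3.14% and 0.251% of all tested genes were. In cpl2-2, 0 members were called higher and 12 lower, where 2.71% and 0.332% of all were. The medians of the list were −0.38 in aipp3-1 and −1.26 in cpl2-2. The number called was 2 without cpl2-2 library 1, 3 without cpl2-2 library 2, 5 without aipp3-1 library 1 and 2 without aipp3-1 library 2.

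IAA29 (AT4G32280), a repressor of auxin signalling that auxin itself raises, was at 5.14 and 9.16 FPKM in aipp3-1, 1.2 and 1.39 in cpl2-2, against 5.43 and 5.31 in Col-0 (difference −2.04 ± 0.26, adjusted p = 0.0027). IAA1 (AT4G14560), of the same family, was at 15.46 and 20.01 FPKM in aipp3-1, 4.73 and 5.01 in cpl2-2, against 20.96 and 17.22 in Col-0 (difference −1.75 ± 0.22, adjusted p = 0.0029). Both were below Col-0 in cpl2-2 and within or near its range in aipp3-1, and both kept their calls with any library left out. GH3.3 (AT2G23170), which couples auxin to amino acids, was at 69.0 and 106 FPKM in aipp3-1, 27.7 and 30.4 in cpl2-2, against 43.2 and 45.9 in Col-0 (difference −1.54 ± 0.25, adjusted p = 0.012; 0.12 without cpl2-2 library 1 and 0.11 without aipp3-1 library 2). Of the 232 tested genes annotated as responding to auxin, chosen after the calls were seen, 13 were called lower and none higher. The 13, of which CPL2 is one, were 5.6%, against 0.764% of all tested genes, and the median was −0.15.

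Among the calls were 3 genes for suberin, the lipid polymer of root endodermis and periderm, named after their values were seen. CYP86A1 (AT5G58860), a fatty acid hydroxylase, was at 35.2 and 40.1 FPKM in aipp3-1, 12.9 and 17.8 in cpl2-2, against 31.5 and 28.2 in Col-0 (difference −1.28 ± 0.23, adjusted p = 0.016). GPAT5, an acyltransferase, and ABCG6, a transporter, differed by −1.15 ± 0.23 and −1.30 ± 0.27 (adjusted p = 0.025 and 0.028). These 3 were the calls among 14 tested genes annotated to suberin biosynthesis, a list taken up after the calls were seen, whose median was −0.66. They were 21.4% of the list, where 0.764% of all tested genes were called lower. The count was 0 without cpl2-2 library 1, 2 without cpl2-2 library 2 and 0 without either aipp3-1 library. Root markers were also lower in cpl2-2 than in aipp3-1, as given above, and their part in these calls was not tested.

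Among the genes called higher in cpl2-2 were genes known as targets of the complex. A published list of 155 genes raised in aipp3-1, cpl2-2 and the aipp2-1/paipp2-1 double mutant had 145 tested members. Of these, 6 were called higher in cpl2-2 than in aipp3-1 (4.14%, against 0.432% of all tested genes) and none lower. The median difference was 0.09, against −0.045 for all. The study chose this list on these libraries, so its direction against Col-0 is not independent evidence. The number called higher was 4 without cpl2-2 library 1 and without aipp3-1 library 2, and 6 without either of the others.

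SEC31A (AT1G18830), a coat protein of vesicles that leave the endoplasmic reticulum, was at 2.40 and 3.25 FPKM in aipp3-1, 16.1 and 15.7 in cpl2-2, against 0.03 and 0.06 in Col-0 (difference 2.32 ± 0.20, adjusted p = 0.00027). SUC5 (AT1G71890), a sucrose transporter, was at 3.73 and 2.46 FPKM in aipp3-1, 11.2 and 10.2 in cpl2-2, against 0.19 and 0.46 in Col-0 (difference 1.66 ± 0.27, adjusted p = 0.012; 0.12 without cpl2-2 library 1 and 0.11 without aipp3-1 library 2). CHI (AT2G43570), a putative chitinase, was at 21.2 and 16.2 FPKM in aipp3-1, 52.0 and 67.6 in cpl2-2, against 7.51 and 5.69 in Col-0 (difference 1.65 ± 0.25, adjusted p = 0.0071; 0.078 without aipp3-1 library 2). In all 3 the order was Col-0, then aipp3-1, then cpl2-2, with no overlap between libraries.

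The argonaute genes AGO5 and AGO9, which act in the germ line, held the same order at low levels. AGO5 (AT2G27880) was at 0.25 and 0.26 FPKM in aipp3-1, 1.34 and 1.19 in cpl2-2, against 0.08 and 0.04 in Col-0 (difference 1.22 ± 0.19, adjusted p = 0.0073; 0.087 without cpl2-2 library 1 and 0.056 without aipp3-1 library 2). AGO9 (AT5G21150) was at 0.40 and 0.43 FPKM in aipp3-1, 1.67 and 1.64 in cpl2-2 and 0.12 in both Col-0 libraries (difference 1.24 ± 0.22, adjusted p = 0.016; 0.051 to 0.12 with a library left out). The other called genes of the study's list, named after their values were seen, were ASY1, a protein of the meiotic chromosome axis, at 1.64 ± 0.24 (adjusted p = 0.0071; 0.05 without cpl2-2 library 1), AT1G74870 at 2.18 ± 0.28 and AT1G52100 at 1.19 ± 0.12. Of the study's further examples, AT3G59480 was at 7.05 and 8.79 FPKM in aipp3-1 and 10.6 and 16.4 in cpl2-2 and did not pass (difference 0.71 ± 0.38, adjusted p = 0.40). AT3G53650 was listed at 0 in all 16 libraries. The study nevertheless has this gene on its common list and reports it raised in a nuclear run-on assay. The zeros are therefore not read as absence of the transcript, and their cause was not tested.

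**Figure D4:**
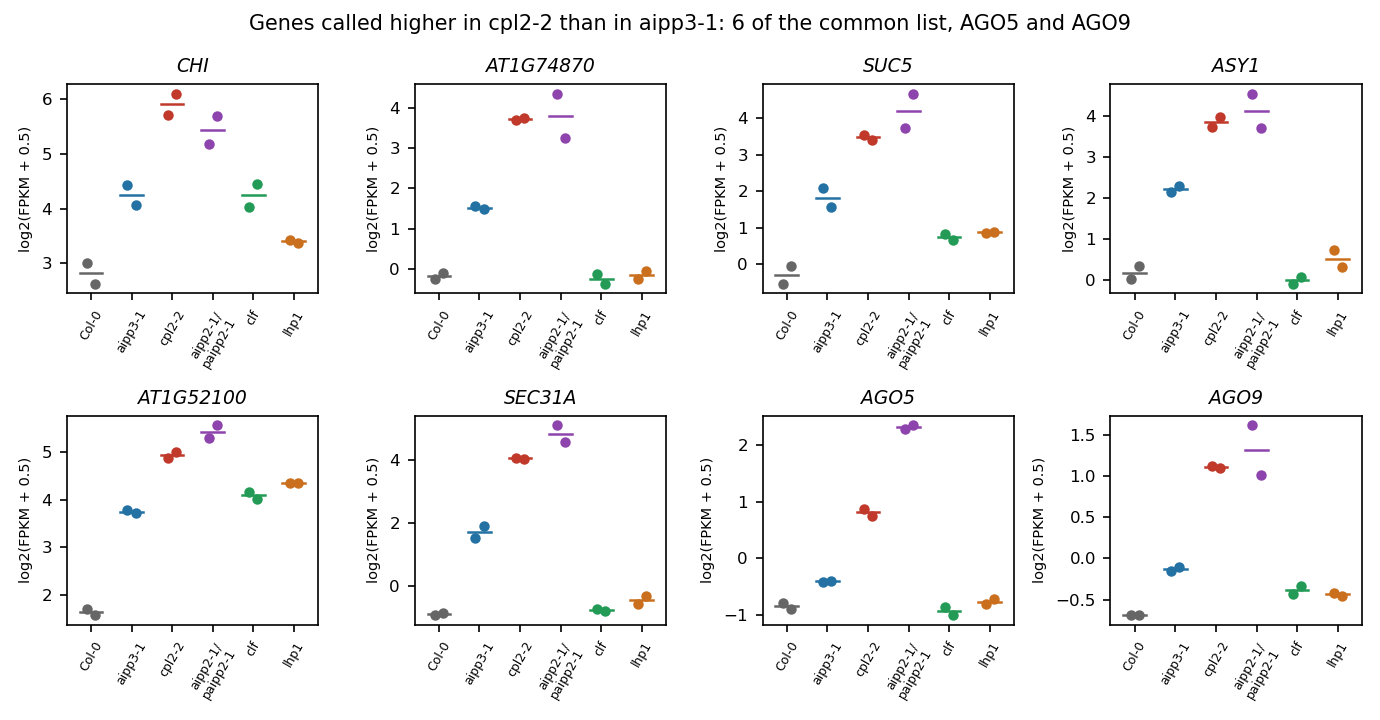
Level of 8 genes called higher in cpl2-2 than in aipp3-1 in each library (points; bars are means of 2 libraries) as log2(FPKM + 0.5), in Col-0, aipp3-1, cpl2-2, aipp2-1/paipp2-1, clf and lhp1: 6 genes of the study's common list, AGO5 and AGO9. In each panel Col-0 is lowest of Col-0, aipp3-1 and cpl2-2, aipp3-1 lies between, and the cpl2-2 points lie above both aipp3-1 points.

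The other large differences among genes called higher had several patterns. MSTRG.21985, a locus with no name in the annotation, was at 0.09 and 0.02 FPKM in aipp3-1, 6.62 and 6.64 in cpl2-2, against 4.29 and 3.22 in Col-0 (difference 3.69 ± 0.30, adjusted p = 0.00018). It was also near 0 in clf (0.05 and 0.08) and lhp1 (0.01 and 0). NATA1 (AT2G39030), an acetyltransferase, was at 1.31 and 0.55 FPKM in aipp3-1 and 7.63 and 7.87 in cpl2-2 (difference 2.58 ± 0.61, adjusted p = 0.049; 0.10 to 0.33 with a library left out). AT4G36700 was at 0.24 and 0.12 FPKM in aipp3-1 and 6.04 and 2.64 in cpl2-2, and AT3G05950 was at 1.21 and 0 and at 6.21 and 3.53 (adjusted p = 0.015 and 0.019). Leaving out cpl2-2 library 1 or aipp3-1 library 2 ended both of these calls, with adjusted p = 0.15 and 0.11 for AT4G36700 and 0.19 and 0.11 for AT3G05950, and without aipp3-1 library 1 that of AT4G36700 was at 0.054. Among the genes called lower, AT3G25240, of unnamed product, was at 4.91 and 5.35 FPKM in aipp3-1 and 0 and 0.36 in cpl2-2 (difference −3.10 ± 0.35, adjusted p = 0.0016).

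Flowering regulators showed 2 calls among 26 tested, both lower (7.69%, against 0.764% of all tested genes), and a median of −0.14. FLC (AT5G10140), which represses flowering, was at 0.34 and 0.77 FPKM in aipp3-1, listed at 0 in both cpl2-2 libraries and at 0.91 and 1.1 in Col-0 (adjusted p = 0.0495; 0.051 to 0.39 with a library left out). TEM2 (AT1G68840), a repressor of the flowering signal FT, was at 75.8 and 73.2 FPKM in aipp3-1, 37.8 and 31.0 in cpl2-2, against 32.8 and 31.1 in Col-0 (difference −1.11 ± 0.23, adjusted p = 0.031; 0.13 to 0.17 with a library left out). FT (AT1G65480) was at 3.18 and 1.73 FPKM in aipp3-1, 6.58 and 7.01 in cpl2-2, against 0.82 and 1.75 in Col-0, and its difference of 1.35 (95% interval 0.54 to 2.15) did not pass (adjusted p = 0.081; 0.015 with the aipp2-1/paipp2-1 libraries left out of the fit, and 0.064 to 0.52 under the other alternatives). SOC1, which promotes flowering, was at 29.5 and 25.4 FPKM in aipp3-1 and 29.4 and 27.5 in cpl2-2, a difference of 0.05 (95% interval −0.39 to 0.49), while both mutants were above the 14.4 and 14.1 FPKM of Col-0.

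Among the remaining lists the calls were few, where 0.432% of all tested genes were called higher and 0.764% lower. SEC31A was the 1 call among 16 genes of endoplasmic reticulum stress, SUC5 the 1 among 8 of sucrose transport, and AGO5 and AGO9 the 2 among 16 of RNA silencing. AOC1 (AT3G25760), an allene oxide cyclase of jasmonate synthesis, was the 1 call of 20 jasmonate genes, at 34.5 and 30.9 FPKM in aipp3-1 and 13.6 and 12.8 in cpl2-2 (difference −1.27 ± 0.24, adjusted p = 0.021; 0.082 to 0.14 with a library left out). The lists of Polycomb subunits, CTD kinases, circadian clock, salicylic acid and defense, heat shock, seed maturation, glucosinolate, anthocyanin, photosynthesis, floral homeotic and cold, drought and abscisic acid genes had no call at the threshold, with medians from −0.47 for the last to 0.40 for seed maturation. PR1, PR2 and PR5, markers of salicylic acid defense, had differences of 1.90, 1.06 and 1.23 that did not pass.

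**Figure D5:**
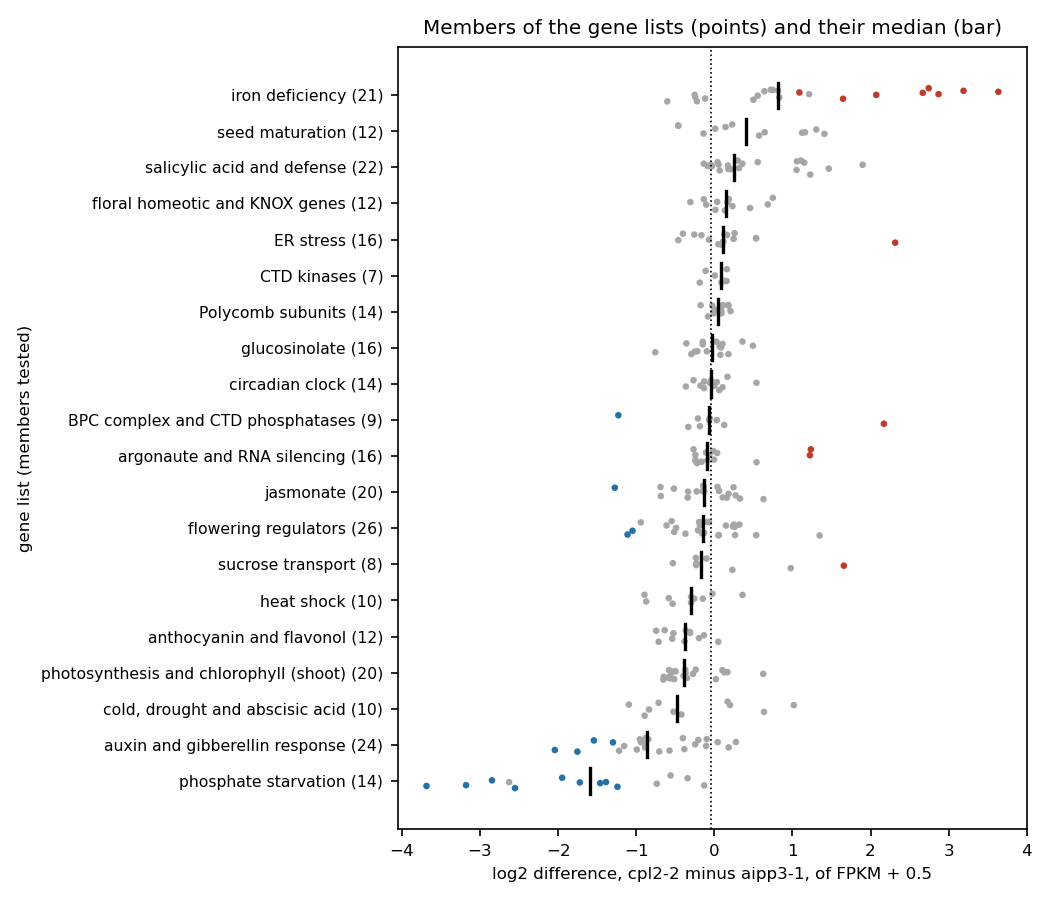
Difference of each tested member (points) of 20 gene lists, cpl2-2 minus aipp3-1 in log2(FPKM + 0.5), with the median of the list as a black bar and the median of all tested genes (−0.045) as a dotted line. Red points are members called higher in cpl2-2 and blue points members called lower; the phosphate starvation list (median −1.59) and the iron deficiency list (median 0.82) lie at the ends.

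The called genes were also looked up in genotypes that share no library with cpl2-2 or aipp3-1. In the aipp2-1/paipp2-1 double mutant against Col-0, where 6.44% of tested genes were called higher and 1.28% lower, 40 of the 86 genes higher in cpl2-2 were called higher (46.5%) and 7 lower. Of the 152 genes lower in cpl2-2, 10 were called higher there (6.58%) and 23 lower (15.1%), with a median difference of −0.21. The genes higher in cpl2-2 than in aipp3-1 were thus often raised in the PHD double mutant. Those higher in aipp3-1 were raised there at about the background share. Both lists were called lower there more often than all tested genes (8.14% of the 86 and 15.1% of the 152, against 1.28%). In the plot of phosphate genes, both libraries of the double mutant lie below both of aipp3-1 in every panel.

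Against Col-0, clf had 5.98% of genes called higher and 2.55% lower, and lhp1 had 2.8% and 1.82%. Of the 86 genes higher in cpl2-2, 36 were called higher in clf (41.9%) and 7 lower (8.14%), and 26 were called higher in lhp1 (30.2%) and 5 lower (5.81%). Of the 152 lower in cpl2-2, 21 were called higher and 21 lower in clf (13.8% each), and 15 higher (9.87%) and 22 lower in lhp1. Both lists thus held more calls than the background in either direction, and the genes higher in cpl2-2 leaned to the side raised in the Polycomb mutants. In lhp1, IRT1 was at 190.0 and 187 FPKM and CYP82C4 at 147 and 142, far above their levels in Col-0. In the single mutants against Col-0, 0 of the 238 called genes were called in aipp2-1, and 3 were called higher and 0 lower in paipp2-1. Of all tested genes, 0.00503% were called higher and 0% lower in aipp2-1, and 0.131% and 0.0352% in paipp2-1.

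Some noncoding and organelle genes were called too. Of 129 tested snoRNA genes, 6 were called higher in cpl2-2 (4.65%), as were 6 of 215 long noncoding RNA genes (2.79%) and 65 of 19008 protein-coding genes (0.342%). The neighbouring snoRNA genes AT3G08165 and AT3G50825 on chromosome 3 were at 21.6 and 11.2, and 16.6 and 14.4 FPKM in aipp3-1, and at 31.2 and 38.0, and 34.0 and 30.9 in cpl2-2. Their differences were 1.12 ± 0.27 and 1.04 ± 0.20 (adjusted p = 0.0495 and 0.023), and leaving out a library raised them to at most 0.37 and 0.19, with the AT3G08165 call kept only without aipp3-1 library 1 and the AT3G50825 call in none. The summed FPKM of the tested snoRNA genes was 809 and 857 in Col-0, 574 and 550.0 in aipp3-1, and 767 and 798 in cpl2-2. Such RNAs mostly lack the poly(A) tail on which the libraries were selected, and the part of the selection in these values was not tested.

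Of 114 tested chloroplast genes, 6 were called higher (5.26%), and of 45 mitochondrial genes 1 was called lower. The summed FPKM of the chloroplast genes was 3436 and 1021 in Col-0, 783 and 1122 in aipp3-1, and 2479 and 2926 in cpl2-2. Col-0 library 1 was above both cpl2-2 libraries, and library 2 lay between the aipp3-1 libraries. Some called genes had near-identical values in the 4 libraries and could share fragments: the chloroplast tRNA genes TRNI.1 and TRNI.4, and the steroid dehydrogenase genes HSD4 and HSD7. The called genes were spread over the 5 chromosomes, with 0.364% to 0.503% of tested genes higher and 0.534% to 0.916% lower on each, and 5 pairs of neighbours were called in the same direction.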

How the data were processed

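Poly(A)-selected mRNA libraries (TruSeq, paired reads, NovaSeq) were made from 8 genotypes with 2 libraries each. The authors used SeqPrep and Sickle for trimming, and the values they deposited are FPKM per gene. The submitters' processing notes name TopHat, Bowtie, RSEM and edgeR; which of them made the table, their versions and the genome build for mRNA-seq are not given in the sources used here. Fragment totals were recovered from the steps between low FPKM values times transcript length, and 94.2% to 96.9% of the values came out whole within 0.1 fragment.

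Differences are cpl2-2 minus aipp3-1 from limma 3.58.1 (R 4.3.3; lmFit, contrasts.fit and eBayes with a trend) on log2(FPKM + 0.5), which understates the change of low genes. All 16 libraries entered 1 fit, so that they share an estimate of spread, and the contrast used 4. The test covered the 19895 of 33048 genes that reached 1 FPKM in 2 or more libraries, with Benjamini-Hochberg adjustment over all of them, and called at an adjusted p under 0.05 and at least 2-fold. On simulated data, 194 of 200 changed genes were recovered and 7 unchanged genes were called. Whether these rates hold for the genes called here, most of which differed by less than 4-fold, was not tested. Named genes were those of the complex, the study's examples, the 10 largest called differences in each direction, up to 3 called members of a list, and called neighbours; others were chosen after their values were seen. The members and lists were chosen with earlier results of these data known. Planned members whose symbols could not be tied to a locus were left out, among them PECP1 of the phosphate starvation list. That symbol was not matched to PEPC1 (AT1G17710), which is reported above as a called gene outside the list. Gene positions, promoters and miRNAs came from RefSeq TAIR10.1. Alternatives covered the pseudocount, filter, scaling, libraries in the fit, replicate block and each library left out. Tables were handled in Python 3.11.15 with pandas 2.3.3 and numpy 2.4.6, and figures drawn with matplotlib 3.10.9.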

Additional observations from a re-analysis of the deposited data

Results flagged for a closer look

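Called genes were looked up for cases in which both libraries of aipp3-1 and both of cpl2-2 lay on opposite sides of both Col-0 libraries. This held for 66 of the 238 called genes (27.7%), against 948 of 19895 tested genes (4.77%); the calls use the same libraries, so this is a description. Among named genes, AIPP3 (difference 2.17), MSTRG.21985 (3.69), NATA1 (2.58) and AT1G47400 (2.46) were below Col-0 in aipp3-1 and above it in cpl2-2. NPC4 (−2.87), GH3.3 (−1.54) and LSU3 (−1.31) were above Col-0 in aipp3-1 and below it in cpl2-2. The difference between the mutants is the limma contrast given for each gene, and its cause was not tested. With 2 libraries a group, no library could be tested for standing apart from its group.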

How the results depend on the processing

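The count of genes higher in cpl2-2 ranged from 24 to 57, and that of genes lower from 31 to 176, with 1 of the 4 libraries left out (86 and 152 with all). The count lower was 97 with a filter of 5 FPKM, 51 with only the 4 libraries in the fit, 90 with only Col-0, cpl2-2 and aipp3-1, and 89 when 2-fold in each of the 4 library pairs replaced the test. The count higher was 146 without the aipp2-1/paipp2-1 libraries. With no minimum fold the counts were 167 and 351. Pseudocounts of 0.1 and 1, quantile or median-ratio scaling, no trend, no filter and a filter on the 4 libraries kept both counts within 1.5 times. The cause of the changes was not tested.

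In a fit with a replicate block, the counts were 74 and 137, of which 73 and 134 were called without it; deviations of same-numbered libraries correlated at 0.178 between cpl2-2 and aipp3-1, −0.114 between cpl2-2 and Col-0 and −0.164 between aipp3-1 and Col-0, and nothing in the labels ties the numbers to a shared batch. Of 42 named genes tested, 14 of the 37 called kept their call under every setting that tested them, and no called gene changed sign. FT alone gained a call, without the aipp2-1/paipp2-1 libraries (adjusted p = 0.015). With a library left out, AIPP2 ranged from −0.11 (without cpl2-2 replicate 1) to 0.18, with −0.026 without aipp3-1 replicate 2, and SOC1 from −0.054 (without aipp3-1 replicate 2) to 0.16; neither was called. Loci with few fragments, such as the miRNA genes, are limited by depth.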
